A study of Mus musculus with 11 samples.

Results

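Blood vessels of bone marrow were followed here through 32 genes that endothelial cells use, in RNA from whole distal tibiae of mice with and without depletion of bone marrow adipocytes (BMAds). The genes were given as a list of symbols. The rule took the rows of the merged count table that carry 1 of these symbols. It found 30 of the 32 among 22600 genes, and all 30 passed the filter on low counts that left 16496 genes for testing. Robo4 and Egfl7 were outside the merged table and were measured in the per-library count files instead.

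The distal tibia is a site rich in constitutive BMAds. RNA came from 4 Control mice, labelled BMAd-WT, and 7 BMAd-DTA mice, each sequenced as 1 library, all 24 weeks old, fed ad libitum and of a strain given as C57BL6/SJL. Both groups carried Osterix-FLPo and FAC, an Adipoq-Cre cassette that works only after FLPo has inverted it, so Cre was made where Osterix and then Adipoq had been active. BMAd-DTA mice also carried ROSA-DTA, in which Cre removes a stop and diphtheria toxin A kills the cell. Mice with this Cre allele have low circulating adiponectin, which both groups therefore share, and the study describes the recombination as less than complete. The question was whether the vessel genes of the bone differed when BMAds were depleted.

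Libraries held 16969529 to 18637663 counts, and no member had fewer than 91 counts in any library. At its mean count, the counting error of a member in 1 library was 1.63% to 8.83%. The spread between mice was more than 2 times that error for 24 of 30 members in Control mice and for 29 in BMAd-DTA mice. For Erg in Control mice the spread was 3.57% beside a counting error of 3.56%. The score of 12 adipocyte markers (mean log2 CPM, where CPM is the count scaled to library size) was 5.23 to 6.12 in Control mice and 3.51 to 5.36 in BMAd-DTA mice, with 4 BMAd-DTA mice under the Control range. Skeletal muscle RNA differed far more between mice than between groups: the muscle score was 0.32 to 5.94 in Control and 0.19 to 5.52 in BMAd-DTA mice, with 1 Control and 3 BMAd-DTA mice under 1. Each bone was pulverised whole, so the libraries mix bone, marrow and whatever tissue adhered.

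Endothelial cells line every vessel. In bone marrow most vessels are sinusoids, wide and thin-walled channels with scavenger receptors on their lining and gaps through which blood cells leave, and these drain the capillaries and arterioles that supply the bone. Sinusoids are in contact with BMAds and with the stromal cells that keep haematopoietic stem cells. Vascular endothelial growth factor (VEGF), angiopoietin, Notch and sphingosine-1-phosphate signalling set their growth, stability and traffic.

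No member passed the test. In edgeR's quasi-likelihood test, with p-values adjusted by Benjamini-Hochberg over every gene tested, 0 of 30 members had an adjusted p under 0.05, where 13 of 16496 genes did (0.0788%, with 0.0727% higher and 0.00606% lower in BMAd-DTA mice). At an unadjusted p under 0.05 there was 1 member of 30 (3.33%), S1pr1, which was higher in BMAd-DTA mice, beside 16.4% of all genes (7.89% higher and 8.53% lower). DESeq2 called 1 member, also S1pr1, and 845 genes in all (5.42%, with 2.78% higher and 2.64% lower). The directions were even, with 15 members fitted higher and 15 lower in BMAd-DTA mice (50.4% of all genes were fitted higher). The median log2 fold change of the members was -0.01, and that of all genes was 0.00. The log2 fold changes ran from -0.23 for Tek to 0.59 for S1pr1.

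The data also bound how large a change could have been missed. For 28 of 30 members the 95% interval of the fold change stayed within 1.5-fold in either direction, beside 61.9% of all genes and 77.7% of genes with a mean of 50 counts or more. The exceptions were S1pr1 and Sox17. The tightest interval belonged to Pecam1, from -0.16 to 0.12 on the log2 scale, next to Erg, from -0.15 to 0.15. No member had groups that did not overlap in CPM, which 2.81% of all genes had. In whole bone, fewer endothelial cells and less RNA per cell cannot be told apart, and an equal level does not show that either was equal.

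**Figure D1:**
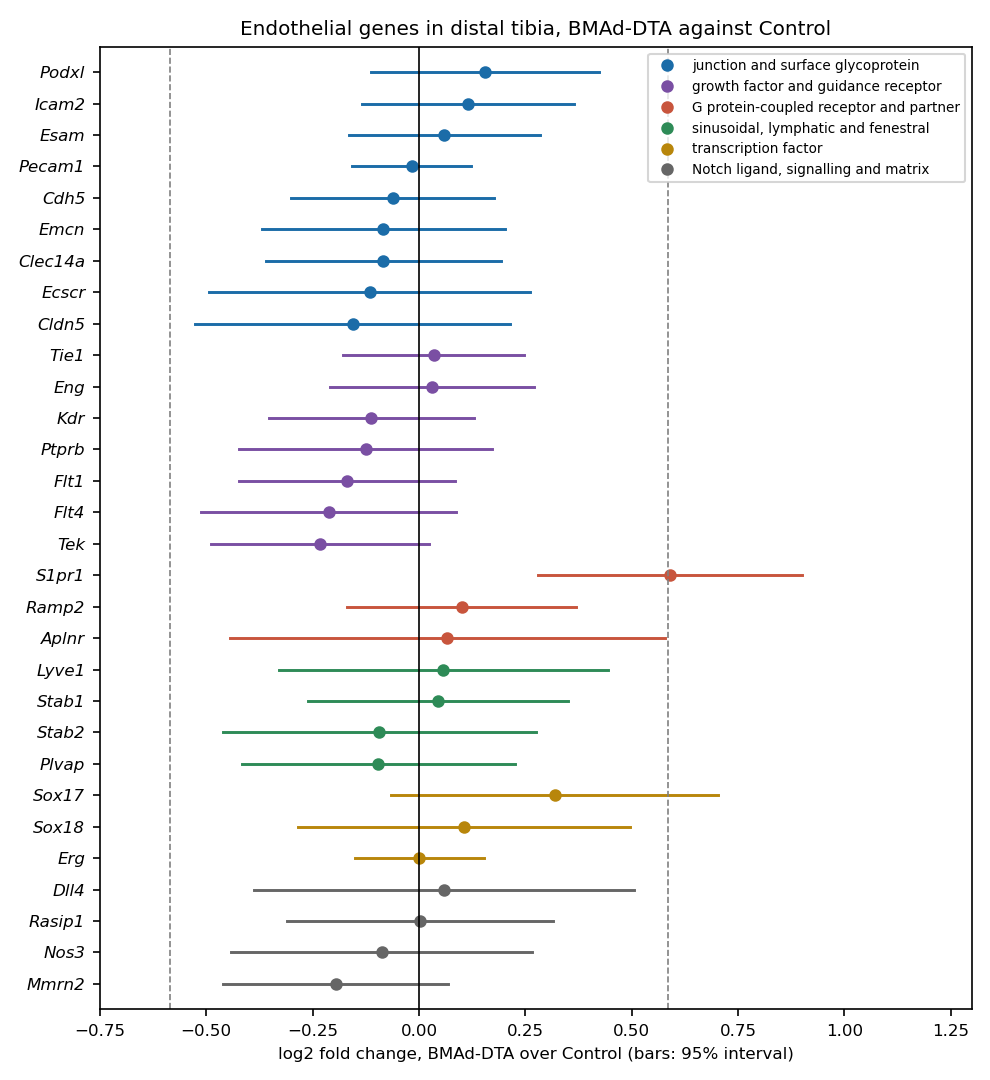
Log2 fold change of each of the 30 members in BMAd-DTA over Control mice (points) with its 95% interval (bars) from edgeR, coloured by role. The dashed lines stand at 1.5-fold in either direction, and the intervals of 28 members lie between them, those of S1pr1 and Sox17 being the exceptions.

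Per length of exon the members covered a wide range of levels. Plvap, the protein of the diaphragms that span endothelial fenestrae and caveolae, was highest at a mean of 107.6 CPM per kb over all mice. Eng, a co-receptor for bone morphogenetic proteins, followed at 46.6 CPM per kb and Sox18 at 34.3 CPM per kb. Cdh5 (26.2 CPM per kb), Pecam1 (22.8 CPM per kb) and Stab2 (21.3 CPM per kb) lay close together. At the low end were Nos3 (2.48 CPM per kb), Dll4 (1.91 CPM per kb) and Sox17 (1.52 CPM per kb), genes that are strongest in arteries and arterioles.

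Of the 9 junction and surface glycoprotein genes, 3 were fitted higher and 6 lower, none passed the test, and their median log2 fold change was -0.06. Pecam1, an adhesion molecule of endothelial junctions that platelets and leukocytes also carry, had 155.9, 132.1, 144.4 and 140.3 CPM in Control mice and 123.6 to 151.0 CPM in BMAd-DTA mice, with a median of 145.3. Its groups covered nearly the same range. The means were 143.1 ± 9.89 CPM (SD, n = 4) and 141.4 ± 9.07 CPM (SD, n = 7), with a log2 fold change of -0.02 (SE 0.07).

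Cdh5, the cadherin that holds endothelial cells together and is close to exclusive to them, had 121.6, 115.9, 113.3 and 101.0 CPM in Control mice and 84.4 to 124.2 CPM (median 118.2) in BMAd-DTA mice. The BMAd-DTA mice reached both below and above the Control mice. The difference was -0.06 on the log2 scale (SE 0.11, edgeR adjusted p = 0.834).

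The member of this group with the largest fitted value was Podxl, a sialomucin that faces the vessel lumen. It had 34.8, 27.0, 30.2 and 26.6 CPM in Control mice and 25.9 to 40.5 CPM (median 32.8) in BMAd-DTA mice, a log2 fold change of 0.15 (SE 0.12, edgeR adjusted p = 0.587). The smallest was that of Cldn5, a tight-junction claudin, with 33.6, 34.4, 42.2 and 27.8 CPM in Control mice and 19.3 to 40.3 CPM (median 29.2) in BMAd-DTA mice. This gave a log2 fold change of -0.16 (SE 0.17, edgeR adjusted p = 0.710). In both genes the BMAd-DTA values spanned those of most Control mice. Icam2 (0.12) and Esam (0.06), adhesion molecules, were fitted higher, and Emcn (-0.08), a sialomucin of veins and marrow capillaries, Clec14a (-0.08) and Ecscr (-0.12), surface proteins of endothelial cells, were fitted lower on the log2 scale, each with an edgeR adjusted p above that of Podxl.

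Most receptors for vascular growth factors were fitted slightly lower. Of 7 measured in the merged table, 2 were fitted higher and 5 lower, with a median log2 fold change of -0.13. None passed the test, and each interval contained 0. Tek, the angiopoietin receptor Tie2, had the smallest log2 fold change of all members. Its values were 44.7, 42.8, 38.3 and 33.3 CPM in Control mice and 26.8 to 42.4 CPM (median 33.2) in BMAd-DTA mice. In 4 of the 7 BMAd-DTA mice it was below every Control mouse, and the other 3 lay among them. The log2 fold change was -0.23 (SE 0.12, interval -0.49 to 0.02, edgeR adjusted p = 0.347).

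Flt4, the VEGF-C receptor of lymphatic and sinusoidal endothelium, had 104.9, 96.9, 90.2 and 90.2 CPM in Control mice and 57.3 to 102.5 CPM (median 79.1) in BMAd-DTA mice. As for Tek, 4 BMAd-DTA mice were below every Control mouse and none was above. Flt4 had a log2 fold change of -0.21 (SE 0.14, edgeR adjusted p = 0.479). Flt1, which binds VEGF-A as a decoy and a receptor, was likewise below every Control mouse in 4 BMAd-DTA mice and had a log2 fold change of -0.17 (SE 0.12, edgeR adjusted p = 0.512).

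Kdr, the main signalling receptor for VEGF-A, had 98.0, 89.9, 91.4 and 95.9 CPM in Control mice, a narrow range, and 64.4 to 99.3 CPM (median 92.6) in BMAd-DTA mice. Of the BMAd-DTA mice 3 lay below and 3 above every Control mouse. The log2 fold change was -0.11 (SE 0.11, edgeR adjusted p = 0.681). Ptprb, the phosphatase that acts on Tie2 and the VEGF receptor, was at -0.13 (SE 0.14). Tie1, the orphan partner of Tie2, had the largest value of the group, with 52.7, 50.3, 54.1 and 48.7 CPM in Control mice and 41.6 to 62.5 CPM (median 54.4) in BMAd-DTA mice. Its log2 fold change of 0.03 (SE 0.10) was small against a spread in which 4 BMAd-DTA mice exceeded and 2 fell short of all Control mice. Eng was at 0.03 (SE 0.11). Robo4, a guidance receptor that steadies vessel walls, was measured in the per-library files at 50.1 ± 5.86 CPM (SD, n = 4) in Control and 50.6 ± 13.0 CPM (SD, n = 7) in BMAd-DTA mice, with a log2 fold change of 0.01 (SE 0.18) in a fit of 16668 genes.

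S1pr1 stood apart from the other members. The gene lies on chromosome 3 from 115710433 to 115715072 (GRCm38) and encodes the receptor for sphingosine-1-phosphate that strengthens endothelial junctions and that lymphocytes use to leave tissues for the blood. It had 42.8, 59.4, 78.9 and 67.5 CPM in Control mice and 76.0 to 111.6 CPM (median 93.6) in BMAd-DTA mice. Of the BMAd-DTA mice, 6 of 7 were above every Control mouse, and the remaining mouse lay just under the highest Control mouse. The means were 62.2 ± 15.2 CPM (SD, n = 4) and 93.6 ± 11.5 CPM (SD, n = 7), a 1.51-fold difference with a 95% interval of 1.21 to 1.87. The log2 fold change of 0.59 (SE 0.14) missed the threshold in edgeR, with an adjusted p of 0.0799, and passed it in DESeq2, with an adjusted p of 0.0042.

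Markers of B lymphocytes, which make S1pr1, were fitted higher as well, 7 of 7. Of these markers 1 had an unadjusted p under 0.05 in edgeR (14.3% against 16.4% of all genes). None passed the adjusted threshold in edgeR or DESeq2. Their score was 4.98 to 6.47 in Control and 5.35 to 7.08 in BMAd-DTA mice. Control replicate 1 had both the lowest S1pr1 and the lowest B lymphocyte score of all mice, and BMAd-DTA replicate 2 had the highest of both. BMAd-DTA replicate 3 had 89.6 CPM of S1pr1 at a B lymphocyte score of 5.35, below 3 of the 4 Control mice. With that score as a covariate the log2 fold change was 0.47 (edgeR adjusted p = 0.164), and without Control replicate 3 it was 0.73 (edgeR adjusted p = 0.0393). Osteoblast markers were fitted higher too, 11 of 11, with a score of 6.98 to 8.22 in Control and 8.34 to 9.18 in BMAd-DTA mice. Among Control mice the osteoblast score and S1pr1 were both lowest in replicate 1 and highest in replicate 3. BMAd-DTA replicate 7, however, had the lowest osteoblast score of its group (8.34) at 102.3 CPM of S1pr1. The cell type that carried the S1pr1 RNA was not tested.

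The other members that signal through G protein-coupled receptors were Aplnr, the apelin receptor of sprouting and venous endothelium, and Ramp2, which turns the receptor Calcrl into an adrenomedullin receptor. Aplnr had 31.6, 28.7, 25.9 and 23.1 CPM in Control mice and 17.1 to 42.4 CPM (median 31.6) in BMAd-DTA mice, among the widest spreads of any member. With 3 BMAd-DTA mice above and 3 below every Control mouse, its log2 fold change was 0.07 (SE 0.24, interval -0.44 to 0.58). Ramp2 was at 0.10 (SE 0.12).

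**Figure D2:**
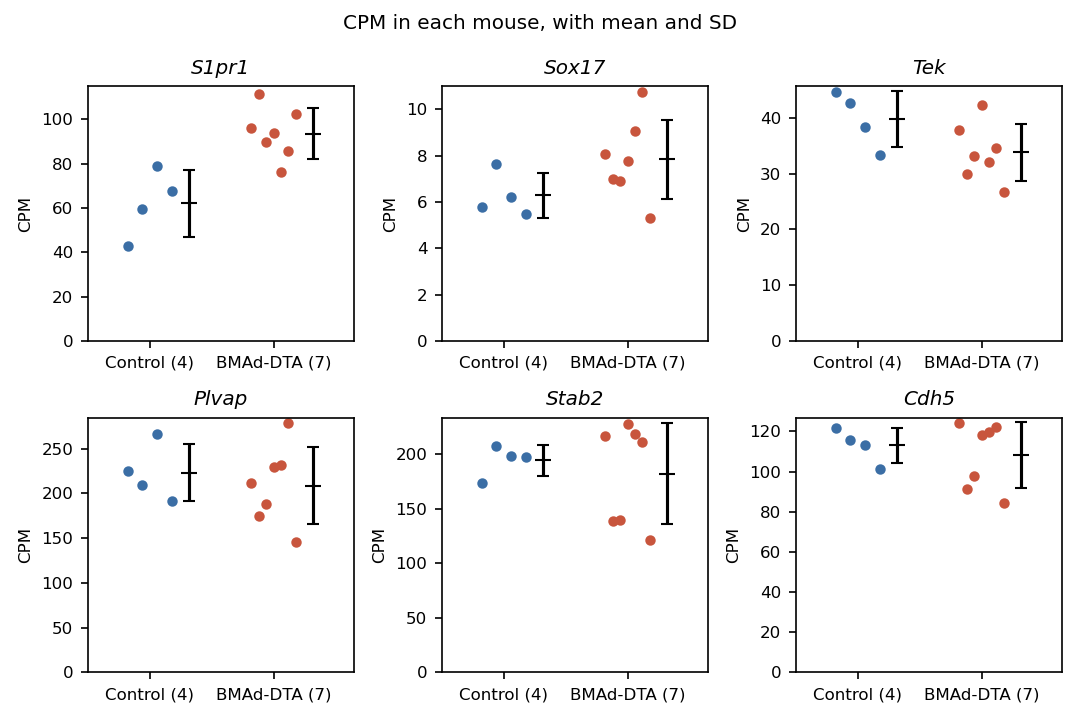
CPM of 6 members in each of the 4 Control and 7 BMAd-DTA mice (points), with the mean and SD of the group (bars). For S1pr1, 6 of 7 BMAd-DTA mice lie above the highest Control mouse, and Stab2 separates into 3 lower and 4 higher BMAd-DTA mice.

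Of the 4 sinusoidal, lymphatic and fenestral genes, 2 were fitted higher and 2 lower, none passed the test, and the median log2 fold change was -0.02. Stab2, a hyaluronan scavenger receptor that is a defining marker of sinusoids and lies on chromosome 10 from 86841198 to 87008025 (GRCm38), had 173.3, 207.5, 198.1 and 197.7 CPM in Control mice. In BMAd-DTA mice it had 216.9, 139.1, 139.4, 228.0, 218.1, 211.0 and 121.4 CPM for replicates 1 to 7. Replicates 2, 3 and 7 lay below every Control mouse and the other 4 above every one. The log2 fold change was -0.09 (SE 0.17, interval -0.46 to 0.27, edgeR adjusted p = 0.836).

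Plvap had 225.1, 209.2, 266.4 and 191.2 CPM in Control mice and 146.1 to 278.1 CPM (median 211.9) in BMAd-DTA mice. It too was lower than every Control mouse in 3 BMAd-DTA mice, replicates 2, 3 and 7. Plvap had a log2 fold change of -0.10 (SE 0.15, edgeR adjusted p = 0.806). Lyve1, a hyaluronan receptor of lymphatic endothelium and some macrophages, had 16.0, 11.2, 16.7 and 11.6 CPM in Control mice and 11.5 to 21.1 CPM (median 13.9) in BMAd-DTA mice, with a log2 fold change of 0.06 (SE 0.18). Stab1, the scavenger receptor of sinusoids that macrophages make as well, was at 0.04 (SE 0.14), and the macrophage score was 6.0 to 6.40 in Control and 6.09 to 6.47 in BMAd-DTA mice.

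The 3 endothelial transcription factors were all fitted higher, none past the threshold, with a median of 0.11. Sox17, which specifies arteries, had 5.79, 7.66, 6.20 and 5.50 CPM in Control mice and 5.33 to 10.7 CPM (median 7.76) in BMAd-DTA mice. It exceeded every Control mouse in 4 BMAd-DTA mice and was lower than all of them in 1. The log2 fold change was 0.32 (SE 0.18, interval -0.07 to 0.70, edgeR adjusted p = 0.398). Erg, the ETS factor that maintains endothelial identity, had 44.1, 42.3, 46.0 and 45.1 CPM in Control mice and 38.6 to 49.3 CPM (median 43.7) in BMAd-DTA mice. Its log2 fold change was 0.00 (SE 0.07), the value nearest 0 among the members, and DESeq2 and voom fitted it slightly lower instead. Sox18 was at 0.11 (SE 0.18) and ranged more widely, from 42.0 to 80.1 CPM in BMAd-DTA mice.

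Of the members of Notch, nitric oxide and matrix pathways in the merged table, 2 of 4 were fitted higher, with a median of -0.04. Dll4, the Notch ligand of tip cells and arterioles, had 5.02, 8.19, 8.63 and 6.84 CPM in Control mice and 4.96 to 10.3 CPM (median 7.32) in BMAd-DTA mice, a log2 fold change of 0.06 (SE 0.21). Mmrn2, a matrix glycoprotein that binds Clec14a, had 54.7, 45.6, 59.5 and 45.0 CPM in Control mice and 36.6 to 55.7 CPM (median 44.1) in BMAd-DTA mice. It lay below all Control mice in 4 BMAd-DTA mice, with a log2 fold change of -0.20 (SE 0.12, edgeR adjusted p = 0.456). Nos3, the endothelial nitric oxide synthase, was at -0.09 (SE 0.16) and Rasip1, needed for vessel lumens, at 0.00 (SE 0.15). Egfl7, a secreted endothelial factor measured in the per-library files, had 26.5 ± 5.74 CPM (SD, n = 4) in Control and 30.4 ± 5.51 CPM (SD, n = 7) in BMAd-DTA mice, a log2 fold change of 0.20 (SE 0.15).

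Among the tested members, 11 are also made by platelets, leukocytes or stromal cells. Without them 7 of 19 were fitted higher and the median log2 fold change was -0.08, against 8 of 11 fitted higher and a median of 0.05 among those 11. None of the 19 had an unadjusted p under 0.05 in edgeR. The megakaryocyte and platelet score was 7.01 to 7.88 in Control and 6.80 to 7.66 in BMAd-DTA mice, and the marrow stroma score was 7.29 to 7.73 and 7.28 to 7.72. The pericyte and smooth muscle score was 4.53 to 5.53 in Control and 4.89 to 5.36 in BMAd-DTA mice. The neutrophil score was 10.84 to 11.05 in Control and 10.59 to 11.19 in BMAd-DTA mice.

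Individual mice differed more than the groups did. The endothelial score, the mean log2 CPM of the 30 members, was 5.45, 5.38, 5.53 and 5.24 in Control replicates 1 to 4. In BMAd-DTA replicates 1 to 7 it was 5.47, 5.27, 5.27, 5.54, 5.53, 5.55 and 5.11. The group means differed by -0.01, whereas the mice spanned 0.44 on this scale, or 1.36-fold, with a spread of 0.16 (SD within groups). The BMAd-DTA mice held both the highest and the lowest score.

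BMAd-DTA replicate 7 was the lowest of all 11 mice for 17 of 30 members, and 24 members were below their own median there. In Control replicate 4, 27 of 30 were below their own median, and in BMAd-DTA replicate 4, 25 were above it. Within the 7 BMAd-DTA mice, replicate 7 was among the 3 lowest for 24 members, replicate 2 for 23 and replicate 3 for 21, against 2 to 9 members for each of the other 4 mice. For 13 of 30 members the 3 lowest BMAd-DTA mice were exactly replicates 2, 3 and 7. These were Cdh5, Kdr, Flt4, Eng, Emcn, Clec14a, Cldn5, Stab2, Plvap, Aplnr, Sox17, Rasip1 and Mmrn2. S1pr1 did not share this order, since replicates 2 and 7 had its highest values at 111.6 and 102.3 CPM.

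**Figure D3:**
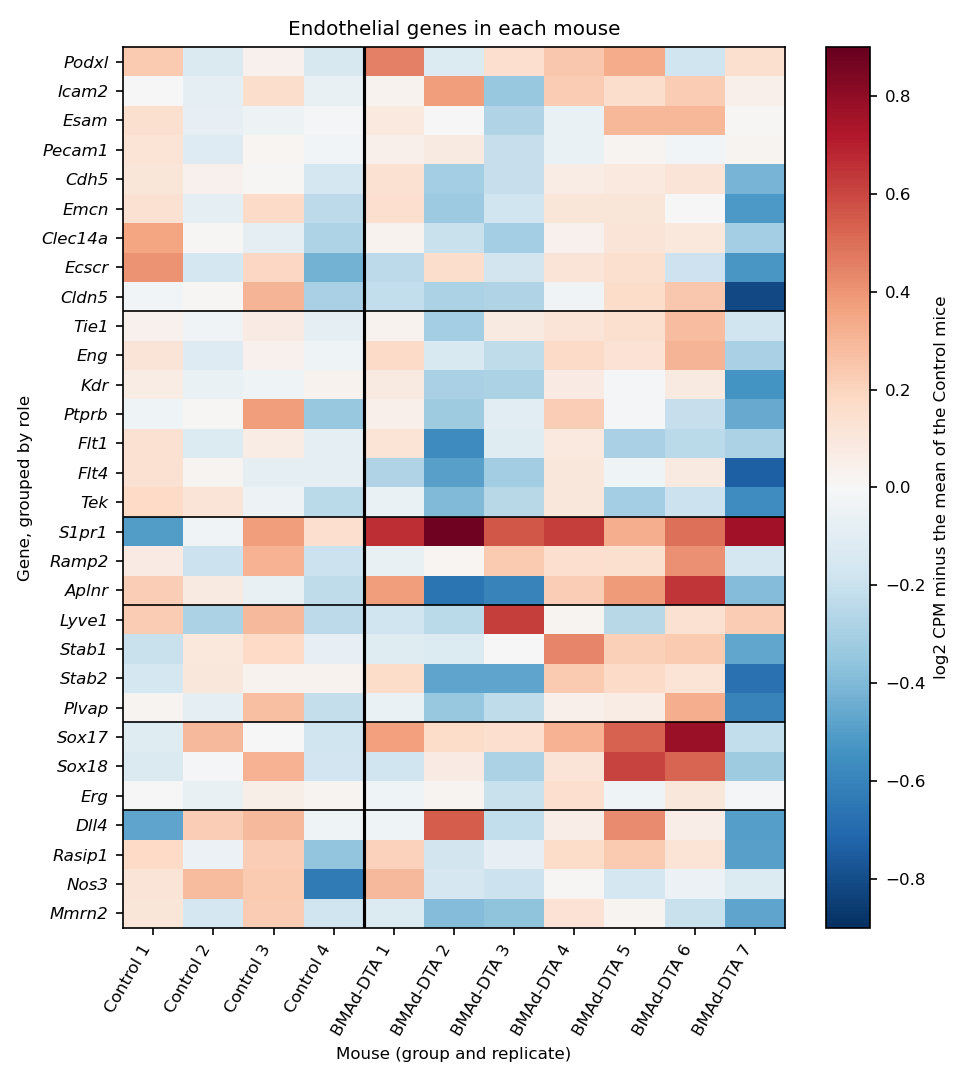
Log2 CPM of each member in each mouse minus the mean of the 4 Control mice (colour), with genes grouped by role and the vertical line dividing Control from BMAd-DTA mice. BMAd-DTA replicates 2, 3 and 7 are blue for most members, whereas S1pr1 is red in all 7 BMAd-DTA mice.

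The same 3 mice had the lowest adipocyte scores in the series, 3.51 in replicate 2, 4.12 in replicate 3 and 3.71 in replicate 7, where the other BMAd-DTA mice had 4.96 to 5.36. Among Control mice the order of the endothelial and adipocyte scores was the same, with replicate 4 lowest in both (5.24 and 5.23) and replicate 3 highest in both (5.53 and 6.12). This order was not particular to adipocyte markers. The pericyte and smooth muscle score was also lowest in BMAd-DTA replicates 2, 3 and 7 (4.99, 4.97 and 4.89, where the other BMAd-DTA mice had 5.04 to 5.36), and in Control mice it was lowest in replicate 4 (4.53) and highest in replicate 3 (5.53). The marrow stroma score was 7.39, 7.28 and 7.52 in those 3 BMAd-DTA mice and 7.62 to 7.72 in the others, but among Control mice it was lowest in replicate 1 (7.29). The groups did not lie on a common line for the adipocyte score. BMAd-DTA replicate 6 had an adipocyte score of 5.26, close to that of Control replicate 4, and the highest endothelial score of all mice. These values share a library and its composition, and the relation was looked for after the values had been seen.

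Muscle RNA varied across the same mice but did not follow the same order. Control replicate 4 and BMAd-DTA replicates 2 and 3 had muscle scores of 0.32, 0.19 and 0.67 and low endothelial scores. BMAd-DTA replicate 5, at a muscle score of 0.57, had an endothelial score of 5.53, and replicate 7 combined a muscle score of 5.14 with the lowest endothelial score. Among mice with muscle scores above 2, the mean endothelial score was 5.46 in 3 Control and 5.42 in 4 BMAd-DTA mice. With the muscle score as a covariate the difference between groups was 0.01.

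**Figure D4:**
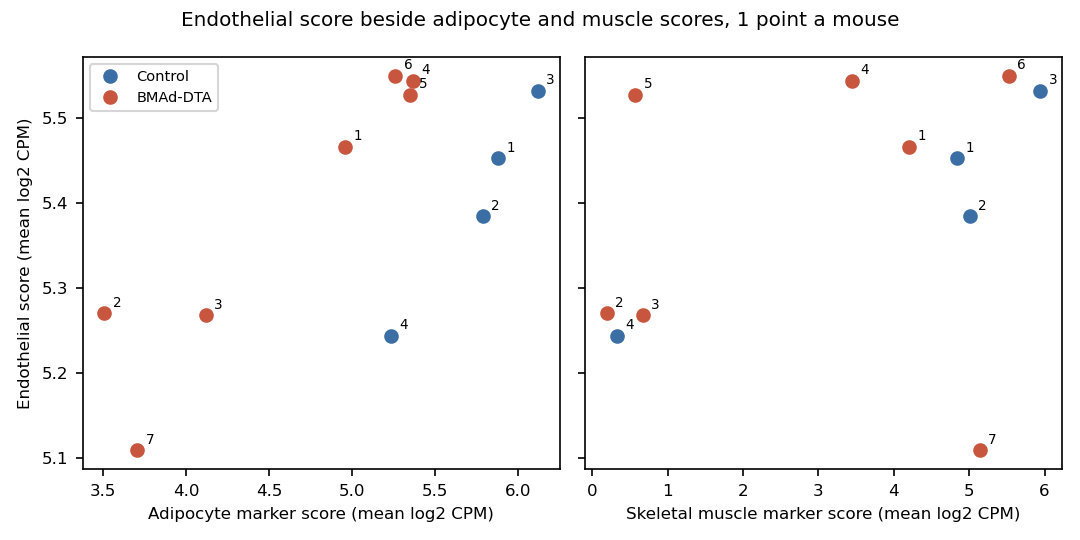
Endothelial score of each mouse (mean log2 CPM of 30 members) against its adipocyte score (left) and its skeletal muscle score (right), with replicate numbers beside the points. BMAd-DTA replicates 2, 3 and 7 are lowest of their group for the endothelial and the adipocyte score, while replicate 7 has a muscle score of 5.14.

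The promoters of some members are shown because they carry the same short letters. The 4 with AGGAAG printed below were picked from the members that were lowest in BMAd-DTA replicates 2, 3 and 7. The RefSeq promoter table for GRCm38.p6 (mm10), which covers 250 bases before to 50 after each start, had an entry for 16 of the 32 genes. AGGAAG, which holds the GGAA core that ETS factors such as Erg recognise, was found on either strand in 10 of these 16 genes (62.5%) and in 38.4% of 27025 genes. The longer CCGGAAGT was in 0 of 16 (4.31% of all) and TATAAA in 2 of 16 (15.7% of all), again on either strand. A match to AGGAAG and a match to CCGGAAGT cannot share a core, since a different base stands before it. The windows of 30 bases below are given 5′ to 3′ on the strand of the gene, with the match in capitals, which for Stab2 and Rasip1 is the reverse complement. They lie at chr3:137340973-137341002 (+) for Emcn, chr2:32646577-32646606 (+) for Eng, chr10:87007965-87007994 (-) for Stab2 and chr7:45627434-45627463 (+) for Rasip1.
Emcn: agtggctgccaaAGGAAGagagaggaaaaa
Eng: gccccttctctaAGGAAGcgcatttcctgc
Stab2: cacctactttccCTTCCTaaccagggaaag
Rasip1: cccctccccgctCTTCCTgccgggtttcct

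Counted from the RefSeq start, the match shown began at -93 in Emcn, -6 in Eng, -40 in Stab2 and -91 in Rasip1. Emcn and Eng each had a second match, as the reverse complement, beginning at -174 and -52. The other 6 genes with a match were Egfl7, Erg, Flt1, Robo4, Stab1 and Tie1. Of these, Erg, Flt1, Stab1 and Tie1 did not have replicates 2, 3 and 7 as the lowest BMAd-DTA mice. Egfl7 and Robo4 did, in the per-library files. Whether a match goes with that order was not tested. TATAAA was found in Erg and Flt1, and in Flt1 it began at -31, at chr5:147726025-147726054 (-).
Flt1: ctggggaaaggtTATAAAtcgcccccgccc
The 4 genes with AGGAAG shown had log2 fold changes between groups of -0.08, 0.03, -0.09 and 0.00 in the order printed.

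Other endothelial genes and the signals that act on vessels gave the context. Both lists were chosen with earlier results of these data known, so their shares beside all genes are descriptive only. Of 54 further endothelial genes 53 were tested. By edgeR 0 passed the adjusted threshold, and 11 had an unadjusted p under 0.05 (3 higher and 8 lower, 20.8% against 16.4% of all genes). The median log2 fold change was -0.08, with 19 fitted higher and 34 lower (35.8% higher against 50.4% of all genes). DESeq2 called 4, all lower in BMAd-DTA mice: Tal1, Cav1, Aqp1 and Lmo2. Over all genes it called 5.42%, with 2.64% lower. The largest fitted values among genes with a mean of 50 counts or more were those of Foxc2 (0.34, SE 0.15), a factor of lymphatic and arterial development, the arterial connexin Gja4 (0.30, SE 0.17) and Tm4sf1 (0.23, SE 0.09), a membrane protein of endothelial cells.

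Tal1, a factor of haematopoietic and endothelial precursors, had the smallest value among genes with that mean count. It had 229.3 ± 53.2 CPM (SD, n = 4) in Control and 161.7 ± 18.9 CPM (SD, n = 7) in BMAd-DTA mice. Its log2 fold change was -0.50 (SE 0.13, adjusted p = 0.086 in edgeR and 0.0075 in DESeq2). Aqp7, with a mean of 48.5 counts, was lower still at -0.96 (SE 0.42, edgeR adjusted p = 0.273). The groups did not overlap for 2 of 53 genes, Aqp7 and Shank3, both lower in BMAd-DTA mice. Over all genes, 171 of 16496 did not overlap in that direction. Cav1, the coat protein of caveolae, which adipocytes also make, was at -0.44 (SE 0.13) and Aqp1, a water channel of endothelium and red cells, at -0.41 (SE 0.12). All 7 erythroid markers tested were fitted lower too, with scores of 8.18 to 9.15 in Control and 8.11 to 8.73 in BMAd-DTA mice. The part of erythroid cells and adipocytes in these values, that of Aqp7 included, was not tested.

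Angiogenic ligands and pathway partners, listed with earlier results of these data known, leaned upward in their fitted values. Of 50 symbols listed, of which Figf is an older symbol of Vegfd, 44 were tested. Their median log2 fold change was 0.12, with 29 fitted higher (65.9% against 50.4% of all genes). None passed the adjusted threshold in edgeR, and 19 had an unadjusted p under 0.05 (15 higher, 4 lower, 43.2% against 16.4% of all genes). DESeq2 called 10 higher and 2 lower, Calcrl and Cav1, beside 2.78% higher and 2.64% lower over all genes. Cav1 was in both lists and is also among the calls of the other endothelial genes. Pgf, the placental growth factor that binds Flt1, had 1.60 to 3.65 CPM in Control and 4.12 to 7.43 CPM in BMAd-DTA mice. The groups did not overlap, as was so for 4 of 44 listed genes, all higher in BMAd-DTA mice, beside 1.78% of all genes in that direction. Its log2 fold change was 0.95 (SE 0.23, adjusted p = 0.0774 in edgeR and 0.0030 in DESeq2).

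Unc5c, a netrin receptor, had a log2 fold change of 0.95 (SE 0.31), and Hey1, a target of Notch, 0.86 (SE 0.23). Hey1 rested on 2.13 to 2.83 CPM in Control and 3.06 to 7.09 CPM in BMAd-DTA mice, without overlap. The other genes without overlap were Unc5b and Nrp2, a receptor for semaphorins and VEGF-C. Of the transporters of sphingosine-1-phosphate, the ligand of S1pr1, Spns2 was at 0.42 (SE 0.12, adjusted p = 0.119 in edgeR and 0.0314 in DESeq2) and Mfsd2b, the transporter of red cells and platelets, at -0.30 (SE 0.15, adjusted p = 0.326 in edgeR). Calcrl, the partner of Ramp2, was at -0.28 (SE 0.08, adjusted p = 0.106 in edgeR and 0.0321 in DESeq2).

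Many of these ligands and partners are made by bone and stromal cells too. All 11 osteoblast markers were fitted higher in BMAd-DTA mice, with a score of 6.98 to 8.22 in Control and 8.34 to 9.18 in BMAd-DTA mice that did not overlap. The source of the angiogenic RNA was not tested. The ligand Vegfb was at 0.04 (SE 0.10), Vegfc at 0.13 (SE 0.14) and Angpt1, the main agonist of Tek, at -0.26 (SE 0.14, edgeR adjusted p = 0.375). Vegfa was outside the merged table and was not analysed here.

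**Figure D5:**
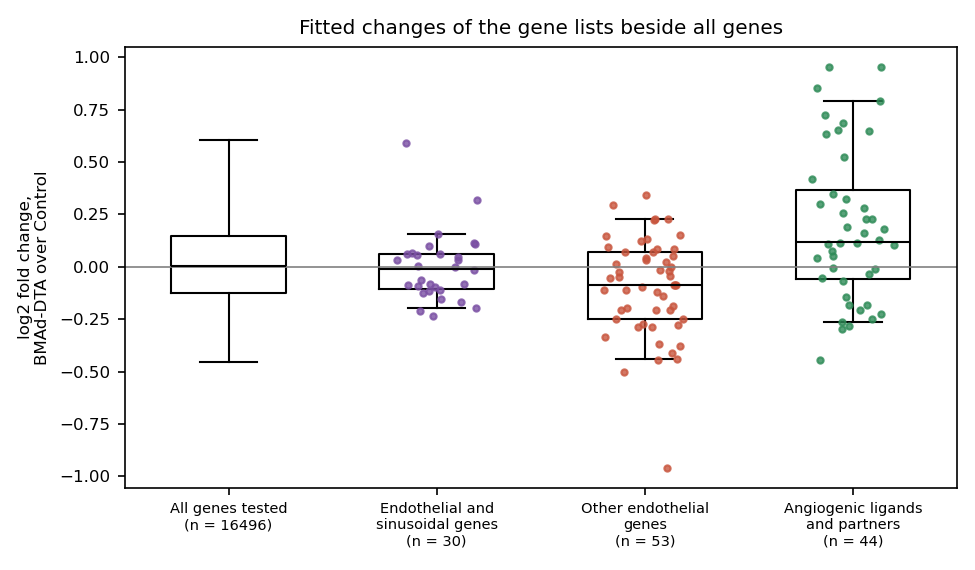
Log2 fold changes of all 16496 genes tested, of the 30 members, of 53 other endothelial genes and of 44 angiogenic ligands and partners (points). Boxes give the median and quartiles and whiskers the 5th and 95th percentiles, and the box of the members runs from -0.11 to 0.06 where that of all genes runs from -0.13 to 0.15.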

How the data were processed

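RNA from powdered distal tibiae was sequenced as strand-specific mRNA libraries (paired reads of 100 bases). The authors checked reads with FastQC v0.11.9, used STAR with default settings to align them to mm10 and deposited raw counts per gene, as 1 file per library and as a merged table of 22600 of 55401 genes. The counts that the authors deposited are not normalised. Multimapping pairs are not in them, and genes outside the merged table hold 1.46% of the counts. The count strand held 95.9% to 96.3% of stranded counts. The annotation release used for counting was not given in the sources used here; positions and exon lengths came from GENCODE on GRCm38, which matched 99.9% of identifiers.

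Groups came from the genotype labels, with replicates numbered in accession order. The main test was run in edgeR 4.0.16 under R 4.3.3 (filterByExpr, which uses a minimum count of 10, TMM scaling, glmQLFit and glmQLFTest, two-sided, Benjamini-Hochberg over 16496 genes, threshold 0.05), with DESeq2 1.42.0 and limma 3.58.1 (voom) as alternatives. The SE was derived from the log2 fold change and its F statistic. Scores are means of log2 CPM with a prior count of 2. On simulated counts with 200 changed genes, 83.5% to 87.5% of changes of 1 on the log2 scale were recovered, with 7 to 12 false calls. Smaller changes, of the size fitted for the members, were not simulated.

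The members and gene lists were chosen with earlier results of these data known. All members are named. Values are given for the extremes of the log2 fold change in each role group and for any with an unadjusted p under 0.05. The same holds for Pecam1, Cdh5, Kdr, Flt4 and Stab2, picked after their values were seen. Each has every Control value and the lowest, median and highest BMAd-DTA value or, for Stab2, every BMAd-DTA value. Of the other lists, the 3 largest and 3 smallest with a mean of 50 counts are named, with further genes chosen after their values were seen. The p-values weigh the difference between groups against the spread between mice. Left out were other assays of the study.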

Additional observations from a re-analysis of the deposited data

Results flagged for a closer look

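Of 66 groups of samples tested for a value standing apart (32 genes and the endothelial score in each group), 2 had one, where chance gives about 1 in 20. Nos3 was at 12.7 CPM in BMAd-DTA replicate 1, and the nearest BMAd-DTA mouse was at 10.4 CPM, a gap of 0.627 of the range beside a critical value of 0.568. Egfl7, in the per-library files, was at 35.1 CPM in Control replicate 3, with the nearest Control mouse at 24.2 CPM, a gap of 0.877 of the range beside a critical value of 0.829.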

How the results depend on the processing

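In all alternatives run the median log2 fold change of the members stayed between -0.08 and 0.02, the number fitted higher between 10 and 17 (7 of 19 without the members that blood or stromal cells also make), and the score difference between -0.07 and 0.03. The number of members past the threshold was 1 (S1pr1) with DESeq2 and without Control replicate 3, and 0 in every other alternative (0 to 1 leaving out 1 mouse). Over its alternatives S1pr1 had log2 fold changes of 0.45 to 0.73 and adjusted p of 0.0042 to 0.234. The sign of the log2 fold change turned for 16 members in at least 1 of the alternatives that fitted it. Clec14a was at 0.05 without Control replicate 1 and Ptprb at 0.02 without Control replicate 3.

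Counts over all genes moved most: 845 with DESeq2, 20 with voom, 20 with DESeq2's size factors in edgeR, 3 with the muscle score as a covariate, 103 in the mice with muscle scores above 2 (chosen after seeing the data), and 0 to 292 leaving out 1 mouse, the highest without Control replicate 3. Of the other endothelial genes, DESeq2 called 4, the muscle-rich mice gave 1 and leaving out 1 mouse gave 0 to 1, in both cases Aqp1 (without Control replicate 4). Of the angiogenic genes, DESeq2 called 12 and leaving out 1 mouse gave 0 to 3, namely Id3, Unc5b and Spns2 without Control replicate 3, and Smad6 alone without BMAd-DTA replicate 7. The cause was not tested. No paired analysis was possible because the labels give no number or litter that links Control to BMAd-DTA mice. Over all 30 members the counting error was 1.63% to 8.83% per library, and for Erg in Control mice it was about as large as the spread between mice.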
